A study of Homo sapiens with 12 samples.

Results

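MALAT1, NEAT1, TUG1, OIP5-AS1, KCNQ1OT1 and NORAD are 6 long non-coding RNAs that many human cells make in quantity. They were taken by name as 6 of the 57134 gene rows of a total RNA data set, and every library held counts for each of them. The libraries were made from the human colon carcinoma line HCT116 and prepared with MATQ-seq, an amplification method for total RNA that does not depend on a poly(A) tail. The study compared 4 groups: 2 DASHed and 2 untreated mini-bulk libraries, and 4 DASHed and 4 untreated libraries of single cells sorted by FACS. DASHed libraries were depleted of ribosomal RNA (rRNA) by scDASH, in which Cas9 cuts library molecules derived from rRNA, and untreated libraries were not. The labels give all 12 libraries the same line and method, and name no separate cultures, so p-values measure the spread between these libraries, which may be technical. In pooled input, fewer cells that make an RNA and less of it per cell cannot be told apart.

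Long non-coding RNAs act without being translated, often as scaffolds or decoys for proteins. NEAT1 is the scaffold of paraspeckles, nuclear bodies that hold RNA-binding proteins, and MALAT1 is concentrated in nuclear speckles, which hold splicing factors. KCNQ1OT1 is read from the paternal copy of an imprinted domain and silences neighbouring genes, and TUG1 is a mostly nuclear RNA linked to chromatin regulators. NORAD is cytoplasmic and carries many sites for Pumilio proteins such as PUM2, and OIP5-AS1 is known as a decoy for the stability factor HuR (ELAVL1). Nuclear RNAs of this kind are of interest to total RNA methods because some of their forms end without a poly(A) tail.

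All positions are on GRCh38 with GENCODE v29 annotation. NEAT1 (ENSG00000245532.8, lincRNA) lies on the plus strand of chromosome 11 at 65422774 to 65445540, and its longest transcript has 22743 nt. MALAT1 (ENSG00000251562.8, lincRNA) starts 52.15 kb further along the same strand, at 65497688 to 65506516, with a longest transcript of 8708 nt. KCNQ1OT1 (ENSG00000269821.1, antisense) is a single transcript of 91667 nt on the minus strand of chromosome 11, at 2608328 to 2699994, inside the gene KCNQ1. TUG1 (ENSG00000253352.9, bidirectional promoter lncRNA) lies on the plus strand of chromosome 22 at 30969245 to 30979395, with 7469 nt. OIP5-AS1 (ENSG00000247556.6, processed transcript) lies on the plus strand of chromosome 15 at 41283990 to 41309737, with 8829 nt, and its end overlaps OIP5 on the other strand. NORAD (ENSG00000260032.1, lincRNA) is a single transcript of 5339 nt on the minus strand of chromosome 20, at 36045622 to 36050960.

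MALAT1 and NEAT1 are shown at their A-rich tracts, because these replace a poly(A) tail: RNase P cuts after the tract, which folds with upstream U-rich stretches into a triple helix that protects the end. The sequences are those of GENCODE v29 transcripts, 5′ to 3′, with the tract in capitals. The MALAT1 window covers bases 8256 to 8355 of its transcript and stops 353 nt before the annotated end, and the NEAT1 window covers bases 22644 to 22743, the last of its transcript.
MALAT1: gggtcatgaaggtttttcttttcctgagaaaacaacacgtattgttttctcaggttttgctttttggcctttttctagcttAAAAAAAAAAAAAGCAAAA
NEAT1: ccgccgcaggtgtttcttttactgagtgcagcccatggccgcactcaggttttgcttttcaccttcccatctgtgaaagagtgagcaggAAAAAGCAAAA

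NORAD is shown at 4 of its Pumilio motifs, the repeated feature that sets it apart in sequence. The motif TGTANATA, with N for any base, was searched on the transcript strand only and is in capitals. NORAD held 15 copies, against 9 in KCNQ1OT1, 6 in NEAT1, 2 in TUG1, 1 in OIP5-AS1 and 0 in MALAT1. Among 5850 genes whose longest transcript has 4000 to 7000 nt, 41.9% held the motif and 3, NORAD included, held at least 15 copies. A match is a string of letters and not a measured binding site.
NORAD bases 750 to 779: tggaaggcctgTGTATATAatatgaaaaag
NORAD bases 1129 to 1158: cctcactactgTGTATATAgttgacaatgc
NORAD bases 1230 to 1259: aaatcacatttTGTAAATAcctttttgtta
NORAD bases 2961 to 2990: caaccctactgTGTATATAgcggacaaact

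The deposited estimated counts summed to 837614 and 1087711 for DASHed mini-bulk input, to 5803180 and 6026584 without depletion, and to 1018874 to 1573651 in DASHed cells and 5545355 to 6008358 in untreated cells. Annotated rRNA took 20.5 to 24.4% of DASHed and 45.2 to 52.9% of untreated counts. A further 9.33 to 18.6% and 21.1 to 37.3% fell on 4 genes that are annotated as lincRNA but were counted here as rRNA. They lie inside 18S rRNA genes of the RefSeq annotation, except FP671120.4, which lies inside the 18S pseudogene RNA18SP5. What remained was 519157 to 1505387 counts per library. Epithelial markers (EPCAM, KRT8, KRT18, KRT19, CDH1 and CLDN4) summed to 1138 to 4208 CPM (counts scaled to a library total of 1000000) in DASHed and 159 to 869 CPM in untreated libraries. KRT8, KRT18, KRT19 and CLDN4 were found in all 12 libraries, EPCAM in 11 and CDH1 in 10. Markers of blood, stroma and endothelium summed to 0.635 to 30.5 CPM, with CD3E, HBB and COL3A1 at 0 throughout. The part of these differences in the results below was not tested.

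kallisto shares reads between transcripts of the same sequence, so how much of each RNA is unique bears on its value. MALAT1 had whole-number counts (within 0.001) in 12 of 12 libraries, TUG1 in 5, NEAT1 in 2, NORAD in 1, and OIP5-AS1 and KCNQ1OT1 in 0. Stretches of 31 bases that also occur in other genes made up 3.80% of NEAT1, 5.28% of MALAT1, 5.79% of KCNQ1OT1, 9.83% of OIP5-AS1, 16.4% of TUG1 and 56.4% of NORAD. The gene that shared most with NORAD was OVCH1-AS1, at 38.0% of its stretches. Each of the 4 genes that shared most, down to 12.4%, had at most 14 counts in all 12 libraries together. In all, 2449 genes shared a stretch with NORAD, and the counts of the others were not looked at. The values of KCNQ1OT1, OIP5-AS1, TUG1 and MALAT1 are uncertain in one more way: they overlap genes on the other strand, and whether strand was used in counting is not given in the sources used here. KCNQ1 itself had 9 counts in all libraries together, OIP5 had 42, and AP000769.2, opposite to MALAT1, had 0.

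In mini-bulk input, the 2 RNAs of the nuclear bodies lay on opposite sides of their untreated levels after depletion. NEAT1 stood at 458 and 468 CPM with depletion and at 168 and 188 CPM without it, from 392 to 1091 counts. Both DASHed libraries were above both untreated ones, at 2.60 times the mean. MALAT1 stood at 311 and 236 CPM in the DASHed libraries and at 329 and 352 CPM in the untreated ones, from 198 to 2041 counts. Both DASHed libraries were below both untreated ones, at 0.804 times the mean. With 2 libraries against 2, each of these differences had p = 0.333 in an exact two-sided permutation test, the smallest it can give.

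KCNQ1OT1, the imprinted antisense RNA, stood at 110 and 155 CPM in the DASHed and at 62.4 and 93.5 CPM in the untreated mini-bulk libraries. The groups did not overlap and the ratio of means was 1.70. TUG1, the chromatin-linked RNA, stood at 13.0 and 10.7 CPM in the DASHed libraries, from only 14.2 and 9.0 counts, and at 23.7 and 25.6 CPM in the untreated ones. It was lower in both DASHed libraries, with a ratio of 0.481, and the exact permutation p was again 0.333 for each of these RNAs.

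The cytoplasmic RNAs did not separate the groups by share of counts. NORAD stood at 34.9 and 14.3 CPM in the DASHed libraries, from 38 and 12 counts, and at 24.7 and 30.9 CPM in the untreated ones. The untreated values lay between the DASHed ones, with a ratio of 0.887 and an exact permutation p of 1. OIP5-AS1 stood at 8.97 and 6.49 CPM in the DASHed libraries, from 9.8 and 5.4 counts, and at 8.88 and 12.5 CPM in the untreated ones. The groups overlapped, with a ratio of 0.723 and an exact permutation p of 0.667.

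CPM rises for other RNAs when rRNA is removed, so the 6 RNAs were read against all genes. Of 10083 genes tested, 76.7% had both DASHed CPM values above both untreated ones and 5.95% had both below. NEAT1 and KCNQ1OT1 were among the former, as most genes were, and MALAT1 and TUG1 were among the latter. The 6 RNAs together took 0.0913% ± 0.0032 (SD, n = 2) of DASHed and 0.0660% ± 0.0060 (SD, n = 2) of untreated mini-bulk counts, a ratio of 1.38 (exact permutation p = 0.333). Of the counts outside rRNA they took 0.154% ± 0.014 (SD, n = 2) and 0.414% ± 0.029 (SD, n = 2), a ratio of 0.371 with the same p. The make-up of that sum changed too: MALAT1 went from 51.6% of it in untreated to 30.4% in DASHed libraries, and NEAT1 from 27.0% to 50.4%.

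**Figure D1:**
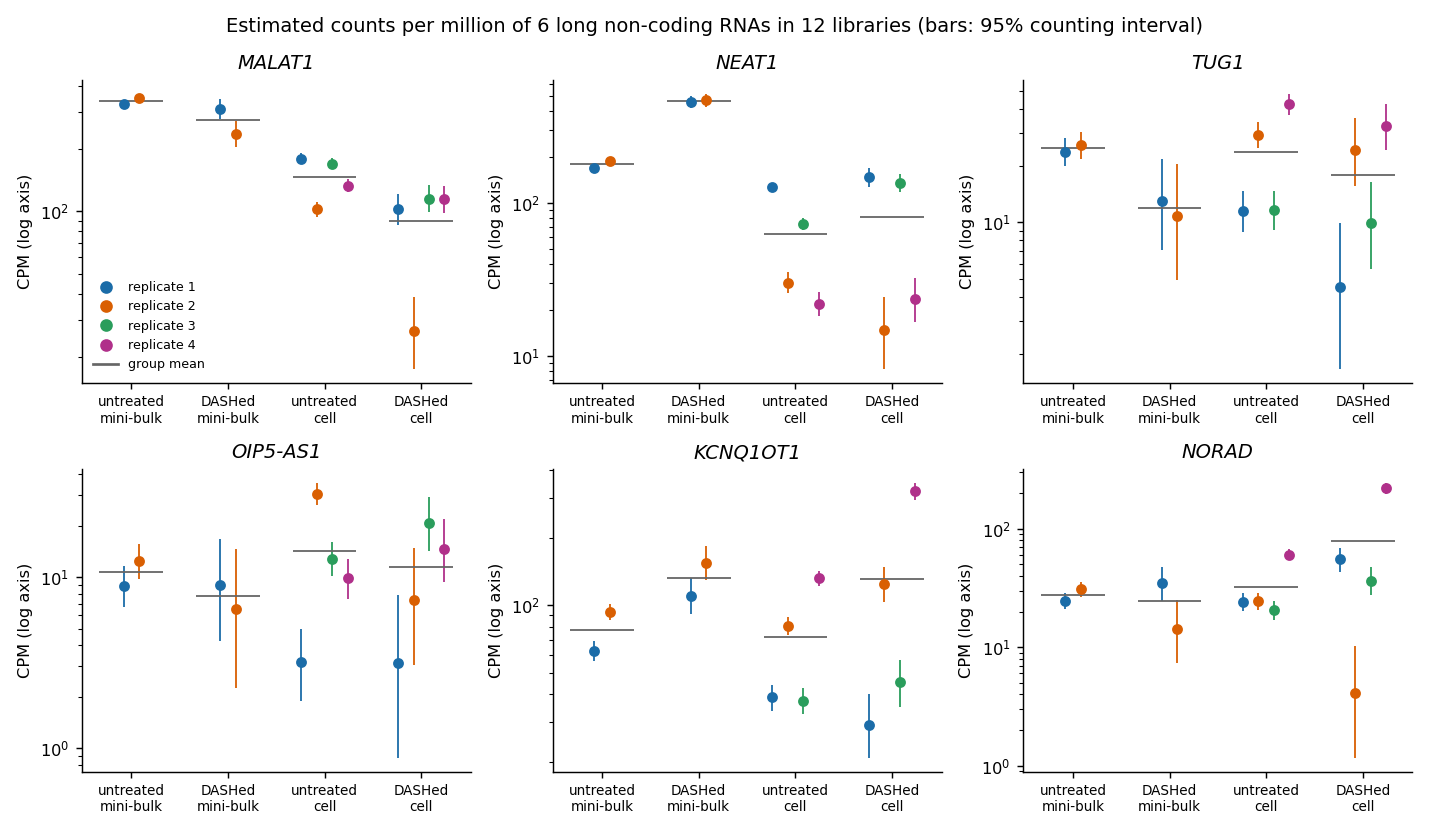
CPM of each RNA (log axis) in the 12 libraries, by group. Points are single libraries coloured by replicate number, bars are exact Poisson 95% intervals that cover counting error only, and grey lines are group means. NEAT1 is higher in both DASHed than in both untreated mini-bulk libraries, MALAT1 and TUG1 are lower, and between cells NORAD runs from 4.11 to 221 CPM.

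Against the bulk of genes that passed an expression filter, all 6 RNAs fell after depletion in mini-bulk. The comparison used edgeR's quasi-likelihood test with TMM scaling, which sets the bulk of genes near 0, and Benjamini-Hochberg adjustment over the 10083 genes that passed the expression filter. All 6 passed it. TUG1 fell by 3.06 on the log2 scale (SE 0.32, adjusted p = 0.000354), which is 8.33-fold. OIP5-AS1 fell by 2.45 (SE 0.45, adjusted p = 0.00478) and MALAT1 fell by 2.33 (SE 0.19, adjusted p = 0.000102). NORAD fell by 2.13 (SE 0.37, adjusted p = 0.00391) and KCNQ1OT1 fell by 1.24 (SE 0.20, adjusted p = 0.0029). NEAT1 moved least: it fell by 0.64 (SE 0.15, adjusted p = 0.0123), or 1.56-fold. Its place against the median of all genes fitted depended on the filter. With DESeq2 that median was -0.63 and NEAT1 lay 0.15 above it. In edgeR with no filter the median was -0.78 and NEAT1 lay 0.18 above it. Of all genes tested, 19.8% were called lower and 9.9% higher, beside 6 of 6 lower calls here. NEAT1's call did not hold with 3 of the 4 libraries left out in turn: its edgeR adjusted p rose to 0.0629 when DASHed replicate 1 was left out, to 0.0926 when DASHed replicate 2 was, and to 0.0626 when untreated replicate 1 was.

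The direction depended on the scale for 2 of the 6. Scaled by library totals alone, the median of all genes rose by 2.04 on the log2 scale, against 0.03 with TMM, and 66.6% of genes were called higher and 1.37% lower. On that scale edgeR called NEAT1 higher by 1.39 (SE 0.25, adjusted p = 0.000161) and KCNQ1OT1 higher by 0.78 (SE 0.31, adjusted p = 0.0343). TUG1 was still called lower, by a log2 value of -1.04 (SE 0.43, adjusted p = 0.0442). MALAT1 had -0.30, NORAD -0.13 and OIP5-AS1 -0.46, and none of these passed. On both of these scales each of the 6 RNAs lay below the median gene.

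Base composition ran alongside these changes. The 6 RNAs are AT-rich: the median GC content of their transcripts was 39.3% for MALAT1, 41.6% for NORAD, 41.8% for TUG1, 43.7% for KCNQ1OT1, 46.4% for OIP5-AS1 and 47.1% for NEAT1, against a median of 51.4% over the genes tested. Across 10053 genes, fold change and GC content had a Spearman correlation of 0.79. Genes are not independent replicates, and this is a description of these 4 libraries. The genes nearest to MALAT1 in GC content, 150 on either side, had a median log2 fold change of -1.98, beside its own -2.33, and those nearest to NEAT1 had -0.73, beside its -0.64. TUG1 and OIP5-AS1 lay further below such neighbours, by differences of -1.39 and -1.52.

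With a GC correction in the same edgeR fit, 1.8% of genes were called lower and 2.04% higher, and 1 of the 6 RNAs kept its call. That was TUG1, at a log2 value of -1.38 (SE 0.32, adjusted p = 0.0425). OIP5-AS1 had -1.53 (adjusted p = 0.102), NORAD -0.44 (adjusted p = 0.601) and MALAT1 -0.30 (adjusted p = 0.398). NEAT1 had 0.18 (adjusted p = 0.626) and KCNQ1OT1 0.17 (adjusted p = 0.806), both above 0. GC content was taken as the median over a gene's annotated transcripts, which for OIP5-AS1 (46.4%) is far from that of its longest one (38.4%). With the longest transcript instead, a choice made after the data were seen, edgeR called TUG1 at -1.82 (adjusted p = 0.0116) and MALAT1 at -0.70 (adjusted p = 0.0381). OIP5-AS1 moved to -0.60 (adjusted p = 0.58) and NEAT1 to 0.47 (adjusted p = 0.121).

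**Figure D2:**
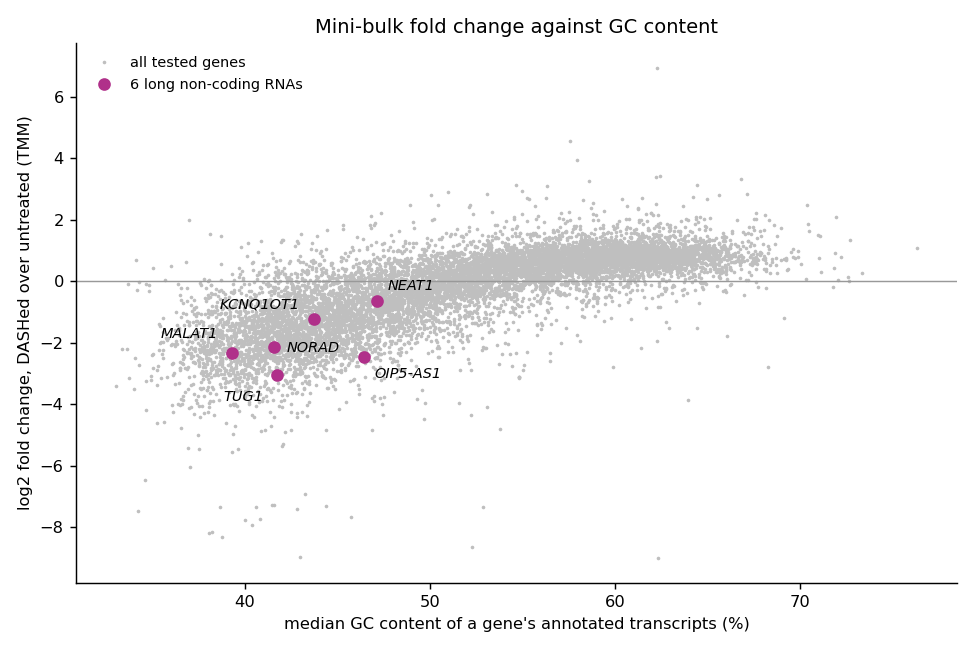
log2 fold change of each tested gene in mini-bulk (DASHed over untreated, TMM scaling) against the median GC content of its annotated transcripts in percent. Grey points are all tested genes and purple points the 6 RNAs, which lie on the AT-rich side, with TUG1 and OIP5-AS1 below most genes of like GC content.

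The base composition varies along each RNA as well, and the most and least GC-rich 100 bases of MALAT1 show how far. The first window has 20% GC (bases 5805 to 5904) and the second has 77% GC (bases 559 to 658). The counts are per gene and do not say which stretch the reads came from.
MALAT1 lowest GC: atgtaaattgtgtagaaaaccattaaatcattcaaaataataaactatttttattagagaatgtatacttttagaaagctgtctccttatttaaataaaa
MALAT1 highest GC: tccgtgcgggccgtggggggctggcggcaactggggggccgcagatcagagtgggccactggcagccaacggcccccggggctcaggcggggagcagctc

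**Figure D3:**
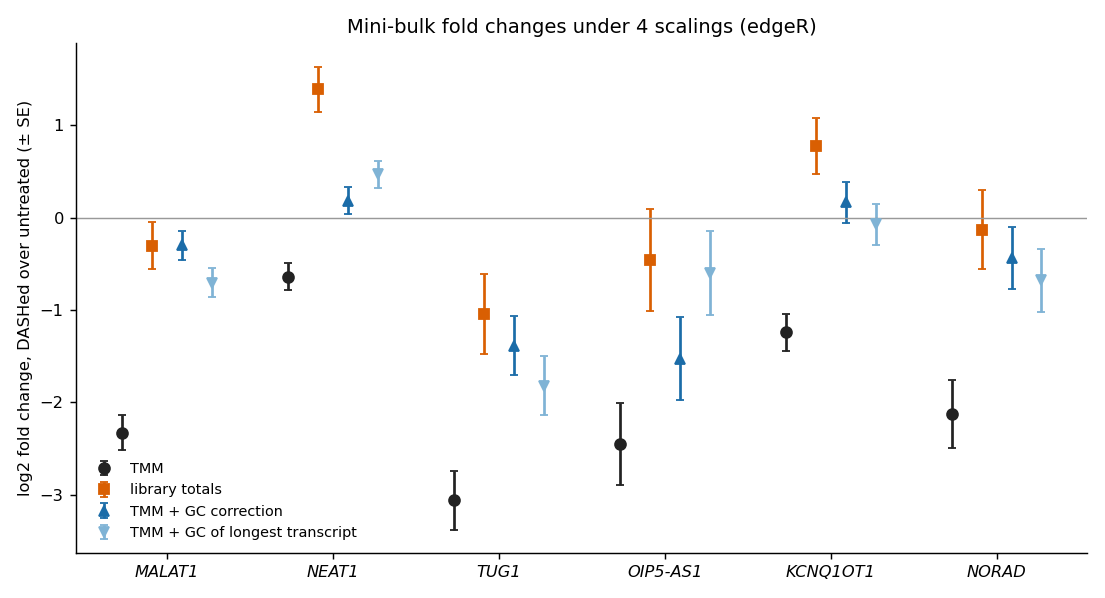
log2 fold change of each RNA in mini-bulk (DASHed over untreated) with its SE, from edgeR under 4 scalings. With TMM all 6 lie below 0. NEAT1 and KCNQ1OT1 lie above 0 on library totals and with the GC correction on transcript medians (KCNQ1OT1 at -0.07 with that on the longest transcript). TUG1, MALAT1, NORAD and OIP5-AS1 lie below 0 under all 4.

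A ratio of 2 RNAs within one library does not depend on how libraries are scaled. The ratios here are not corrected for GC content, however. Genes near NEAT1 in GC content had a median log2 fold change of -0.73 in mini-bulk, and those near MALAT1 had -1.98. With the GC correction NEAT1 had 0.18 and MALAT1 -0.30, or 0.47 and -0.70 on the longest transcript. The part of GC content in these ratios was not tested. In mini-bulk, NEAT1 over MALAT1 was 1.47 and 1.98 with depletion and 0.511 and 0.535 without it. NEAT1 thus outnumbered MALAT1 in counts in both DASHed libraries and in neither untreated one, and the mean ratio was 3.30 times as high (exact permutation p = 0.333). Among cells of the same number, which are taken to pair DASHed with untreated libraries, the ratio was 1.44 against 0.705 in cell 1, 0.556 against 0.296 in cell 2, 1.18 against 0.431 in cell 3, and 0.206 against 0.165 in cell 4. The DASHed value was the higher in each pair, by 2.04, 1.88, 2.74 and 1.25 times. Approximate 95% intervals from the counts alone ran from 1.61 to 2.59 in cell 1 and from 2.18 to 3.44 in cell 3. In cells 2 and 4 they included no change, at 0.976 to 3.61 and 0.837 to 1.87.

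The other ratios did not all keep one direction. KCNQ1OT1 over NEAT1 was 0.241 and 0.331 in DASHed and 0.371 and 0.497 in untreated mini-bulk libraries. In cells 1 and 3 it was 0.198 and 0.334 in DASHed and 0.307 and 0.515 in untreated libraries, so it was lower after depletion as in mini-bulk. In cells 2 and 4 it was 8.43 and 13.7 in DASHed and 2.68 and 6.0 in untreated libraries. KCNQ1OT1 thus outnumbered NEAT1 in both libraries numbered 2 and both numbered 4, and the DASHed value was the higher there. TUG1 over MALAT1 was 0.0419 to 0.0455 in DASHed and 0.0721 to 0.0729 in untreated mini-bulk libraries, 0.602 times as high on average. In cells 1 and 4 it was also lower after depletion, at 0.0441 against 0.0641 and 0.283 against 0.320. In cells 2 and 3 it was higher, at 0.910 against 0.286 and 0.0865 against 0.0689. Only in cell 2 were the intervals for counting error apart, at 0.515 to 1.66 with depletion and 0.239 to 0.341 without it. In cells 1, 3 and 4 the intervals overlapped, so the direction there is within counting error. The intervals of the DASHed and untreated mini-bulk libraries overlapped as well.

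**Figure D4:**
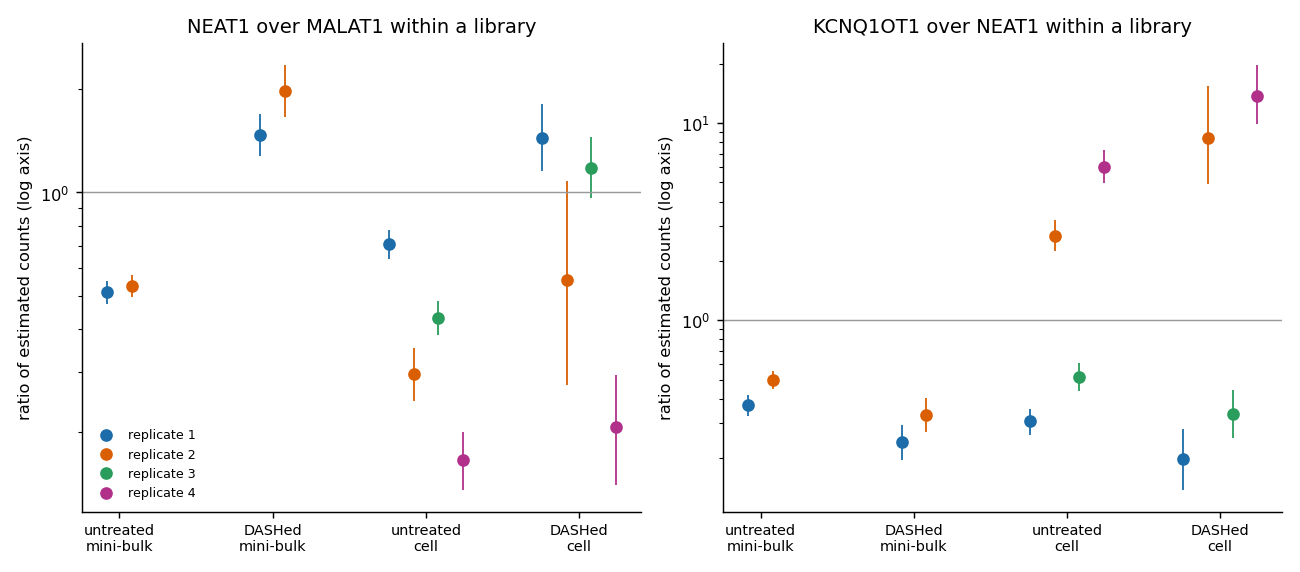
Ratio of estimated counts (log axis) of NEAT1 over MALAT1 (left) and of KCNQ1OT1 over NEAT1 (right) within each library, by group and coloured by replicate number, with 95% intervals for counting error only. NEAT1 over MALAT1 is above 1 in both DASHed mini-bulk libraries and in DASHed cells 1 and 3, and KCNQ1OT1 over NEAT1 is above 1 in the libraries of cells 2 and 4.

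The 6 RNAs varied widely between single cells. Each library is 1 cell and no culture is named, so these values carry no test, and their intervals are exact Poisson 95% intervals for counting error. MALAT1 stood at 103, 26.5, 115 and 114 CPM in DASHed cells 1 to 4 and at 179, 102, 169 and 133 CPM in untreated cells 1 to 4. It was the steadiest of the 6 in untreated cells, where the highest value was 1.75 times the lowest, and DASHed cell 2 stood alone at the low end, from 27 counts. NEAT1 stood at 148, 14.7, 136 and 23.6 CPM in DASHed cells and at 126, 30.2, 72.8 and 21.9 CPM in untreated cells. It was high in cells 1 and 3 and low in cells 2 and 4 of both groups.

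KCNQ1OT1 was instead low in cells 1 and 3 and high in cells 2 and 4 of both groups, at 29.3, 124, 45.3 and 323 CPM in DASHed cells and 38.7, 80.8, 37.5 and 132 CPM in untreated cells. TUG1 stood at 4.52, 24.1, 9.96 and 32.4 CPM in DASHed cells and at 11.5, 29.2, 11.7 and 42.5 CPM in untreated cells, again higher in cells 2 and 4. In the DASHed group this rests on 6.0 to 51.0 counts of TUG1 per cell.

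NORAD stood at 55.1, 4.11, 36.5 and 221 CPM in DASHed cells and at 24.1, 24.4, 20.5 and 60.6 CPM in untreated cells. Cell 4 was the highest in both groups. DASHed cell 2 had 4.2 counts of NORAD, with an interval of 1.16 to 10.3 CPM that lies below that of untreated cell 2 (20.5 to 28.9 CPM). OIP5-AS1 stood at 3.12, 7.34, 20.8 and 14.7 CPM in DASHed cells and at 3.17, 30.7, 12.8 and 9.87 CPM in untreated cells. Cell 1 was the lowest in both groups, from 4.1 and 18.3 counts. The DASHed and untreated ranges overlapped for each of the 6 RNAs.

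Summed over 4 cells, 3 of the 6 RNAs lost at least 2-fold against the median gene. That median rose 2.20-fold in CPM over 13469 genes with at least 20 counts, and 23.7% of those genes stood at least 2-fold below it and 12.6% at least 2-fold above. With 1 CPM added to each value, MALAT1 lay 3.37-fold below the median, TUG1 2.87-fold and OIP5-AS1 2.49-fold. NEAT1 lay 1.67-fold below and KCNQ1OT1 1.16-fold below, and NORAD lay 1.22-fold above. The count of 3 depended on the reference: it was 0 against genes near in GC content, where MALAT1, TUG1 and OIP5-AS1 had log2 values of -0.51, -0.49 and -0.72. It was also 0 with the median over genes with at least 1 count (-0.89, -0.66 and -0.46), and 1 with 10 CPM added, where MALAT1 had -1.05. The plain CPM ratios, DASHed over untreated, were 0.651 (0.592 to 0.714) for MALAT1 and 0.758 (0.604 to 0.942) for TUG1. They were 0.879 (0.665 to 1.15) for OIP5-AS1, 1.32 (1.19 to 1.47) for NEAT1, 1.91 (1.75 to 2.08) for KCNQ1OT1 and 2.74 (2.44 to 3.07) for NORAD. The intervals in brackets cover counting error in the summed counts only and leave out the spread between cells. By pair of cells, the log2 CPM ratio of NORAD (1 CPM added) ran from -2.32 to 1.85. It took both signs for NEAT1, KCNQ1OT1 and OIP5-AS1 too, and was below 0 in every pair for MALAT1 and TUG1.

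The sums for NORAD and KCNQ1OT1 leaned on single cells. Without DASHed cell 4, which held 348 of the 481 DASHed NORAD counts, NORAD's log2 value relative to the median went from 0.29 to -0.93, and that of KCNQ1OT1 from -0.22 to -1.26. Leaving out DASHed cell 1, DASHed cell 3 or untreated cell 4 instead put KCNQ1OT1 above the median, at 0.17, 0.27 and 0.14. Pairs were also taken one by one, each against its own median of 2.28- to 3.06-fold. MALAT1, NEAT1, TUG1, OIP5-AS1 and KCNQ1OT1 were below the median in all 4 pairs, KCNQ1OT1 barely so in pair 4 (log2 value -0.06). The share of all genes that lay below it in all 4 pairs was not counted. In the summed cells, genes near these RNAs in GC content lay below the median too, at median log2 values of -1.24 to -0.36. The MALAT1 log2 values were -2.33, -3.10, -2.17 and -1.56, and those of TUG1 were -2.71, -1.46, -1.82 and -1.73. NORAD was below it in pairs 1 to 3, at -0.38, -3.51 and -0.81, and above it in pair 4, at 0.50. As a share of all counts, the 6 RNAs took 0.0409% ± 0.0226 (SD, n = 4) in DASHed and 0.0351% ± 0.0048 (SD, n = 4) in untreated cells. The ratio of 1.17 became 0.861 without DASHed cell 4.

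**Figure D5:**
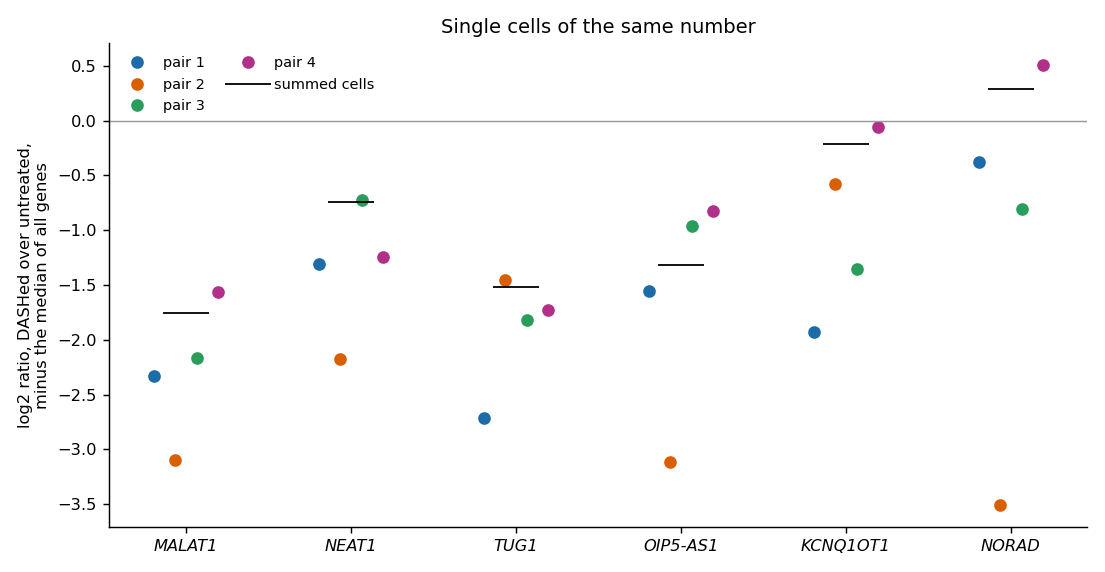
log2 ratio of CPM (1 CPM added) between the DASHed and untreated library of each cell number, minus the median of all genes in that pair, for the 6 RNAs. Points are pairs and black dashes the value from summed cells. MALAT1 and TUG1 are at -1.46 or lower in every pair, and NORAD spans -3.51 to 0.50.

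MALAT1 and NEAT1 were also the RNAs that set mini-bulk apart from single cells. With CPM taken over the counts outside rRNA only, MALAT1 stood at 2319 and 1971 in the untreated mini-bulk libraries and at 376 to 957 in the untreated cells. NEAT1 stood at 1186 and 1053 in the untreated mini-bulk libraries and at 101 to 675 in the untreated cells. Both mini-bulk values were above all 4 cells for these RNAs, in the untreated and also in the DASHed libraries. That was so for 13.6% of genes in untreated and 11.2% in DASHed libraries. TUG1, OIP5-AS1, KCNQ1OT1 and NORAD overlapped between inputs in both. What differed between inputs besides the number of cells was not tested.

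Per kilobase of the longest transcript, MALAT1 was the most abundant of the 6 in untreated mini-bulk, at 39.1 ± 1.84 CPM per kb (SD, n = 2). It was followed by NEAT1 at 7.83 ± 0.61, NORAD at 5.20 ± 0.82, TUG1 at 3.30 ± 0.18, OIP5-AS1 at 1.21 ± 0.29 and KCNQ1OT1 at 0.85 ± 0.24. The values of the pair of libraries overlapped only between the last neighbours, OIP5-AS1 and KCNQ1OT1. In DASHed mini-bulk MALAT1 was at 31.4 and NEAT1 at 20.4 CPM per kb, without overlap, then NORAD at 4.62, TUG1 at 1.59, KCNQ1OT1 at 1.45 and OIP5-AS1 at 0.875. There TUG1 and KCNQ1OT1 overlapped. KCNQ1OT1 is thus next to MALAT1 and NEAT1 by counts in mini-bulk but among the lowest per length, and its annotated transcript is the longest of the 6. With the median length of a gene's transcripts in place of the longest, MALAT1 and NEAT1 still led in untreated mini-bulk, and OIP5-AS1 came next at 13.4 CPM per kb, ahead of TUG1 at 5.86. In untreated cells MALAT1 also led, at 16.7 ± 4.05 CPM per kb of longest transcript (SD, n = 4), without overlap with NORAD at 6.07 ± 3.53. In DASHed cells NORAD had the highest mean, at 14.8 ± 18.2 (SD, n = 4), and MALAT1 had 10.3 ± 4.88, with overlapping ranges. That order rests on DASHed cell 4: without it NORAD had 5.98 ± 4.84 and MALAT1 9.35 ± 5.51 (SD, n = 3). With median transcript lengths MALAT1 was the higher also with all 4 cells, at 187 CPM per kb against 14.8.

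Genes for proteins of the nuclear bodies that these RNAs build or join moved both ways. Here and in the next paragraph a protein's name stands for the RNA counts of its gene, and protein was not measured. Of 12 paraspeckle proteins, 2 were called higher and 5 lower by edgeR, with a median log2 value of -0.28 beside 0.03 for all genes, of which 9.9% were called higher and 19.8% lower. TARDBP, an RNA-binding protein, fell by 1.85 (SE 0.23, adjusted p = 0.000824), and NUDT21, a 3′ end processing factor, fell by 1.70 (SE 0.30, adjusted p = 0.00446). HNRNPK, which is needed for paraspeckles to form, fell by 1.37 (SE 0.21, adjusted p = 0.00241). HNRNPH3 fell by 3.25 (SE 0.66, adjusted p = 0.00773), from 4 and 1 counts in the DASHed libraries. Of 11 nuclear speckle proteins, 1 was called higher and 6 lower, with a median of -0.89. Those of largest change were PNN (-1.62), TRA2B (-1.61), the splicing factor SRSF1 (-1.36) and the speckle scaffold SON (-1.25). With the GC correction the calls were 3 higher and 1 lower for paraspeckle proteins and 1 higher and 1 lower for speckle proteins, where SRSF1 was the lower one at -0.85 (edgeR adjusted p = 0.0442). TARDBP, NUDT21, HNRNPK and HNRNPH3 all lost their calls then (edgeR adjusted p from 0.204 to 0.72), as did PNN, TRA2B and SON. HNRNPK and PNN lay above 0 with that correction, at 0.34 and 0.32. On library totals, where 66.6% of all genes were called higher, 8 of the 12 paraspeckle and 7 of the 11 speckle proteins were called higher and 0 lower.

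Of the 4 NORAD-bound proteins, 2 were called lower, the Pumilio protein PUM2 at -1.84 and RBMX at -1.76. None was called higher with TMM scaling, at an unadjusted p under 0.05 or by DESeq2. On library totals edgeR called 2 of the 4 higher and 0 lower, where 66.6% of all genes were called higher. Of 6 proteins reported to bind OIP5-AS1, TUG1 or KCNQ1OT1, EZH2, a histone methyltransferase of Polycomb, was lower at -2.12. EHMT2, a histone methyltransferase that acts with KCNQ1OT1, was higher at 0.99, and the DNA methyltransferase DNMT1 was higher at 0.55. None of these held with the GC correction. Of 15 genes beside or overlapping the 6 RNAs that have rows in the table, 11 were tested, 2 were called higher and 2 lower, and their median was 0.47. Over all genes 9.9% were called higher and 19.8% lower with TMM scaling. On library totals 9 of these 11 were called higher and 0 lower, beside 66.6% and 1.37% of all genes. PHLDA2, an imprinted gene of the KCNQ1OT1 domain, was higher at 1.63 (SE 0.21, adjusted p = 0.000927), and at 0.82 with the GC correction (edgeR adjusted p = 0.0441). CHP1, next to OIP5-AS1, was lower at -1.94 (SE 0.24, adjusted p = 0.000795), and at -1.77 with the GC correction (edgeR adjusted p = 0.00223). NUSAP1, near OIP5-AS1, was lower at -1.26, and did not pass with the GC correction.

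Other long non-coding RNAs moved both ways, depending on which were counted and how they were scaled. Of 43 on a fixed list, 26 were tested in mini-bulk, 10 were called lower and 0 higher by edgeR, with a median log2 value of -0.999. At an unadjusted p under 0.05, and with DESeq2, 0 were higher as well, whereas the replicate block called 1 higher. Library totals called 10 of the 26 higher and 0 lower, beside 66.6% and 1.37% of all genes. SNHG1, a host gene of small nucleolar RNAs, fell by 2.31 (SE 0.24, adjusted p = 0.000354), and FTX, from the X-inactivation centre, fell by 2.31 (SE 0.38, adjusted p = 0.00326). ZFAS1, another such host gene, fell by 2.46 (SE 0.49, adjusted p = 0.00661). It lies antisense to ZNFX1 and its value is uncertain. PSMA3-AS1 was called lower with 2.11 and 0 counts in the DASHed and 23.7 and 29.98 counts in the untreated libraries, and as an antisense RNA is uncertain too. With the GC correction 2 of the 26 stayed lower, ZFAS1 at -2.22 (edgeR adjusted p = 0.0323) and SNHG1 at -1.04 (edgeR adjusted p = 0.0352). In single cells 12 of 34 stood at least 2-fold below the median gene and 1 above, beside 23.7% and 12.6% of all genes. Over all annotated long non-coding RNA genes, 607 passed the filter in mini-bulk, of which 123 were called lower and 22 higher, with a median of -0.20. The share called lower is close to the 19.8% of all genes, and the share called higher is below the 9.9% of all genes. In single cells, 625 of 1677 such genes stood at least 2-fold below the median gene and 106 above, with a median log2 value of -0.60. That is a larger share below than the 23.7% of all genes, and a smaller share above than the 12.6%.

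The genes closest in pattern to each RNA were found by Pearson's correlation of log2(CPM + 1), centred on each library, over the 12 libraries and among 2200 genes with a mean of at least 100 counts. The libraries differ in depletion, depth and input, which all genes share, so the values are descriptions. For MALAT1 they were VMP1 (0.97), TFRC (0.96) and MED1 (0.95), and for NEAT1 they were GATAD2B (0.96), RAD54L2 (0.94) and B4GALT5 (0.92). TUG1 was closest to TMED2, AHCTF1 and U2SURP (0.97 each), and KCNQ1OT1 to FNBP4 (0.93), SRSF11 (0.92) and ARL6IP1 (0.92). OIP5-AS1 was closest to NFAT5 (0.92), GAPVD1 (0.92) and CNOT1 (0.91), and NORAD to RAC1 (0.96), C2CD3 (0.90) and AGO1 (0.89). The 6 RNAs themselves were left out of this ranking, and correlations between them reached at most 0.86 (TUG1 and KCNQ1OT1).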

How the data were processed

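Estimated counts of genes in 12 libraries were deposited in a single table. Per the submitters' processing notes, kallisto (0.46.2) made them. Build, annotation, strand setting and how transcripts were summed are not given here. Of the nonzero values of a library 30.7 to 55.0% are fractional. Counts were rounded before any test.

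Mini-bulk genes were tested with edgeR 4.0.16 (R 4.3.3, quasi-likelihood, TMM, default expression filter, Benjamini-Hochberg at 0.05). The DASHed libraries had TMM factors of 1.96 and 2.09, the untreated ones of 0.442 and 0.553. Alternatives were library totals, DESeq2 1.42.0, no filter, leaving out libraries, a replicate block and a GC correction (loess of log2 CPM on GC content per library, span 0.5). Single values were compared with exact two-sided permutation tests. Scripts were tested on simulated data. rRNA was 547 genes and pseudogenes and 4 lincRNA genes inside 18S genes or an 18S pseudogene. GENCODE v29 gave positions, GC content and sequences, and the RefSeq table (GRCh38.p14) was used for which genes lie within which. GENCODE names matched 57079 of 57134 genes. TALAM1, on one list, was not analysed here.

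The 6 RNAs and the gene lists were chosen with earlier results of these data known. Genes named from a list are up to 4 of largest fold past the threshold, and 1 gene that this named is left out. A DASHed and an untreated cell with one number deviated together from their groups' means (correlation 0.926 to 0.936). For cells with different numbers the correlation was -0.401 to -0.212, where centring forces negative values. Numbers were taken as pairs on this evidence from the data, not the labels. Single-cell values used a pseudocount of 1 CPM. Intervals cover counting error only.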

Additional observations from a re-analysis of the deposited data

Results flagged for a closer look

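In groups of 4 cells, a value was singled out where its gap to the nearest other, divided by the range, exceeded Dixon's 95% critical value for 4 samples. For the 6 RNAs 12 such groups were looked at, and chance gives about 1 in 20. MALAT1 stood at 26.5 CPM in DASHed cell 2, below the other DASHed cells (gap over range 0.858). NORAD stood at 60.6 CPM in untreated cell 4, above the other untreated cells (gap over range 0.900). NORAD was also highest in DASHed cell 4, at 221 CPM.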

How the results depend on the processing

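Of the mini-bulk fold changes of the 6 RNAs over 11 alternatives, 46 kept direction and call, 13 lost the call and 7 changed direction. DESeq2, no filter and the replicate block changed no call among the 6, and the cause of the changes below was not tested. Genes called higher (998) became 6718 on library totals, 206 with the GC correction, 248 with that on the longest transcript, 2359 with the replicate block, and 205 to 1356 without 1 library. Genes called lower (1999) became 138 on library totals, 1064 with DESeq2, 181 with the GC correction, 204 on the longest transcript, 3044 with the replicate block, 765 with both block and GC, and 1192 to 2094 without 1 library. Where 1 library was left, it is assumed to vary like the other group. Of the 6 RNAs, library totals called 2 higher and 1 lower. The GC correction called 1 lower, 2 on the longest transcript and 3 with the replicate block. Of the other long non-coding RNAs, library totals called 10 higher and 0 lower. The replicate block called 1 higher, alone and with GC, and the GC correction called 2 lower, 2 on the longest transcript and 6 with the block.

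Log2 values of NEAT1 turned to 1.39 on library totals, 0.18 with the GC correction, 0.18 with the replicate block and GC, and 0.47 on the longest transcript. Those of KCNQ1OT1 turned to 0.78, 0.17 and 0.16 under the first 3. Same-numbered mini-bulk libraries correlated at 0.507, and 2 pairs do not decide whether the numbers pair them. The summed share turned to 0.371 (mini-bulk) and 0.383 (cells) outside rRNA. In cells it was 1.05 with the replicate block and 0.861 to 1.36 without 1 cell.

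In single cells, 24 log2 values of the 6 RNAs moved by less than the spread, 50 by more and 10 changed direction. The number of them at least 2-fold below the median (3) ranged from 0 to 5 over the alternatives, with 5 under the replicate block. NEAT1 turned to 0.12 with a minimum of 1 count. KCNQ1OT1 turned to 0.36 with a pseudocount of 10, 0.65 with a minimum of 1 count and 0.59 against genes near in GC, and ranged from -1.26 to 0.27 without 1 cell. NORAD turned to -0.11 with a minimum of 100 counts and -1.05 with the replicate block, and ranged from -0.93 to 0.74 without 1 cell. Depth limits TUG1, OIP5-AS1 and NORAD, with 5.4 to 38.0 counts in DASHed mini-bulk libraries.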

Other observations

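Small RNA families annotated inside the 6 RNAs had rows of their own. RF01957, inside NEAT1, had 13.5 counts over all libraries, and RF01891, inside TUG1, had 21.7. RF01946, on the strand opposite to KCNQ1OT1, had 56.5 counts, of which 39.7 were in 1 library. RF01871 and RF01684, inside MALAT1, had 0.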
